A study of Mus musculus with 18 samples.

Results

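The transcripts of islets from 8 WT mice were described, out of 18 samples in the study, by taking the table's 8 WT columns and giving each gene its mean and SD over them. The study profiled pancreatic islets of mice that were WT for NRK1, an enzyme of NAD synthesis that phosphorylates nicotinamide riboside, or lacked it in beta cells through an Ins1Cre driver, after 12 weeks of a high-fat diet (HFD). The other 10 samples are knockouts and enter no result here. The WT group carries the genotype label NRK1_WT and the treatment label HFD. Each title holds a different animal number, read here as 1 mouse per library. The sources used here give no age, sex, strain or pooling, nor whether the WT mice carried the Cre. All WT mice had the diet, so no value here measures its effect.

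Islets are small endocrine organs within the exocrine pancreas. Beta cells make insulin, alpha cells glucagon, delta cells somatostatin and PP cells pancreatic polypeptide. Each packs its hormone into dense granules with granins and processing enzymes, while the surrounding acinar cells secrete digestive enzymes. A whole-islet library mixes these cells, so fewer cells of a type and less RNA per cell cannot be told apart.

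The assay sequences transcript 3' ends, so reads count transcript ends and levels were compared between genes without dividing by length. The table lists 10509 genes as log2 of CPM, reads scaled to a common library size, plus a floor of 0.562, and reads per gene were worked back from it as whole numbers. The 8 libraries, WT 1 to WT 8, held 3429370 ± 389492 reads over these genes (SD, n = 8), from 2831137 in WT 7 to 4146746 in WT 5. The CPM scale contains a library factor, so a gene's log2 level and its percent of reads can rank libraries differently. WT 7 stood apart. It had 346 listed genes with 0 reads, against 62 to 150 in the other 7, and the genes read at a mean log2 of at least 5 deviated from their means by an SD of 0.45 in it, against 0.25 to 0.30 in the others. The farthest library from each of the other 7 was WT 7, by the SD of the log2 difference over those genes. For many spreads and ranks that WT 7 carried, though not all, the value without it stands beside them.

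Insulin transcripts dominated every library. Ins2 (chromosome 7, 142678656 to 142679726, GRCm38), the ancestral mouse insulin gene, took 38.7% ± 3.78 of the reads (SD, n = 8). Its share was 33.4% in WT 4, a median of 37.8% and 45.9% in WT 7, with 95% Wilson intervals of 33.3% to 33.4% and 45.9% to 46.0% for the end values. Ins1 (chromosome 19, 52264297 to 52265015), the retrogene copy, took 7.24% ± 1.48, from 5.42% in WT 5 to 9.40% in WT 4. Iapp (chromosome 6, 142298425 to 142303820), the islet amyloid polypeptide released with insulin, took 2.15% ± 0.258. These intervals cover counting error within 1 library only. They may be too narrow even for that, because copies made in PCR were not removed by molecular identifiers. Together the 3 genes held 48.0% ± 3.87 of the reads (SD, n = 8), from 45.3% in WT 4 to 57.0% in WT 7. Without WT 7 the 3 genes held 46.8% ± 1.5 and Ins2 alone 37.6% ± 2.56 (SD, n = 7). The number of genes that together held 50% of the reads was lowest in WT 7, at 2, and highest in WT 4, at 20. With both insulin genes set aside, 648 to 757 genes were needed.

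On the log2 scale Ins2 was lowest at 18.16 in WT 4, with a median of 18.36 and a highest value of 19.03 in WT 7. Ins1 ran from 15.71 in WT 5 through a median of 15.93 to 16.71 in WT 7. Iapp ran from 14.01 in WT 1 through 14.34 to 14.47 in WT 3. The ranges of these 3 genes did not overlap each other or that of any other gene, so their order was the same in all 8 libraries. Without WT 7 the log2 SD fell to 0.16 for Ins2 and 0.24 for Ins1, against 0.27 and 0.35 with it. The ratio of Ins1 to Ins2 within a library still differed, from a log2 ratio of -2.91 in WT 5 through a median of -2.54 to -1.83 in WT 4. The insulin genes are alike in sequence, and the sources used here do not say where a read matching both was counted.

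The other islet hormones were lower and less even than insulin. Gcg (chromosome 2, 62474530 to 62483653), which encodes glucagon, took 0.735% ± 0.287 of the reads (SD, n = 8). Its log2 level was lowest at 11.73 in WT 6, with a median of 12.73 and a highest value of 13.40 in WT 3. WT 6 and WT 7 were both low, at 0.350% and 0.347% of the reads, and the other 6 libraries held 0.655% to 1.17%. Sst, which encodes somatostatin, ran from 9.82 in WT 7 through a median of 11.10 to 11.62 in WT 2. Ppy, which encodes pancreatic polypeptide, ran from 7.57 in WT 7 through 8.87 to 9.96 in WT 2. Pyy, which encodes the related peptide YY, ran from 9.71 in WT 7 through 10.61 to 10.95 in WT 2, and it exceeded Ppy in all 8 libraries. For these last 3 genes WT 7 was the lowest and WT 2 the highest. Without WT 7 their SDs were 0.37 for Sst, 0.53 for Ppy and 0.41 for Pyy, against 0.57, 0.72 and 0.47 with it. The appetite peptides Ghrl and Npy were near the floor, with 2 to 23 and 0 to 21 reads per library.

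The 4 genes given as islet markers, Ins2, Ins1, Iapp and Gcg, were ranked 1, 2, 3 and 5 by mean. Chga ranked 4, and its range of 12.56 to 13.15 lay inside that of Gcg, so the order of these neighbours did not hold in every library. Of 20 beta-cell markers, 17 had values, and they took 48.5% ± 3.83 of the reads (SD, n = 8), or 47.2% ± 1.49 without WT 7 (SD, n = 7). The homeodomain factor Nkx6-1 averaged 9.55 ± 0.27, the beta-cell glucose-6-phosphatase G6pc2 9.19 ± 0.29, the maturity marker Ucn3 8.73 ± 0.28 and the glucose transporter Slc2a2 7.87 ± 0.30 on the log2 scale (SD, n = 8). Of 16 alpha-cell markers, 14 had values, among them the transthyretin gene Ttr at 9.19 ± 0.59.

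Transcripts of granule proteins had the lowest median SD of the gene lists. Of 18 genes for granule cargo and prohormone processing, 17 had values, 10 were among the 100 most abundant genes, and their median SD was 0.22. The median SD over all genes was 0.45 and over the 3412 genes with a mean log2 of at least 5, called well-read genes here, it was 0.28. The granule genes had a median level of 9.14, and all genes with a mean log2 of 8 to 10 had a median SD of 0.23. Their evenness was thus near that of other genes at their level. The granin Chga ran from 12.56 in WT 4 through 12.84 to 13.15 in WT 8. The convertase Pcsk2, which cleaves prohormones, ran from 10.84 in WT 1 through 11.13 to 11.39 in WT 3. The granin Scg2 was the widest of the leading members, from 11.06 in WT 4 through 11.58 to 12.01 in WT 6. The trimming enzyme Cpe averaged 11.46 ± 0.23, the granin Scg3 10.64 ± 0.17 and the granule membrane protein Ptprn 10.07 ± 0.19 (SD, n = 8). Vgf, a granule precursor of lower level, had an SD of 0.56 with WT 7 and 0.17 without it.

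The 30 most abundant genes took 54.0% ± 3.30 of the reads (SD, n = 8) and the 100 most abundant 58.5% ± 3.11. Without WT 7 these shares were 52.9% ± 1.35 and 57.5% ± 1.39 (SD, n = 7). Of the 30, 27 had an SD below 0.5. Among the 3412 well-read genes 214 had an SD above 0.5, so an SD below it was not particular to the 30. Hormone genes made up 6 of the 30, and 6 belonged to the granule list. The others included the tetraspanin Cd63, the cyclin Ccnd2, the ER chaperone Hspa5, the imprinted zinc finger gene Peg3, beta-actin Actb, the calcium pump Atp2a3, the stimulatory G protein gene Gnas, the calcium sensor Syt7 and the stress transcription factor Atf4. Cd63 was even in 7 libraries and low in 1, at 10.30 in WT 7 against 11.12 in the next lowest, WT 5. The widest was Mt1, a metallothionein that binds zinc and copper, from 9.30 in WT 1 through 10.26 to 11.54 in WT 5. The last gene inside the 30 had a mean of 10.02 and the first outside it 10.00.

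**Figure D1:**
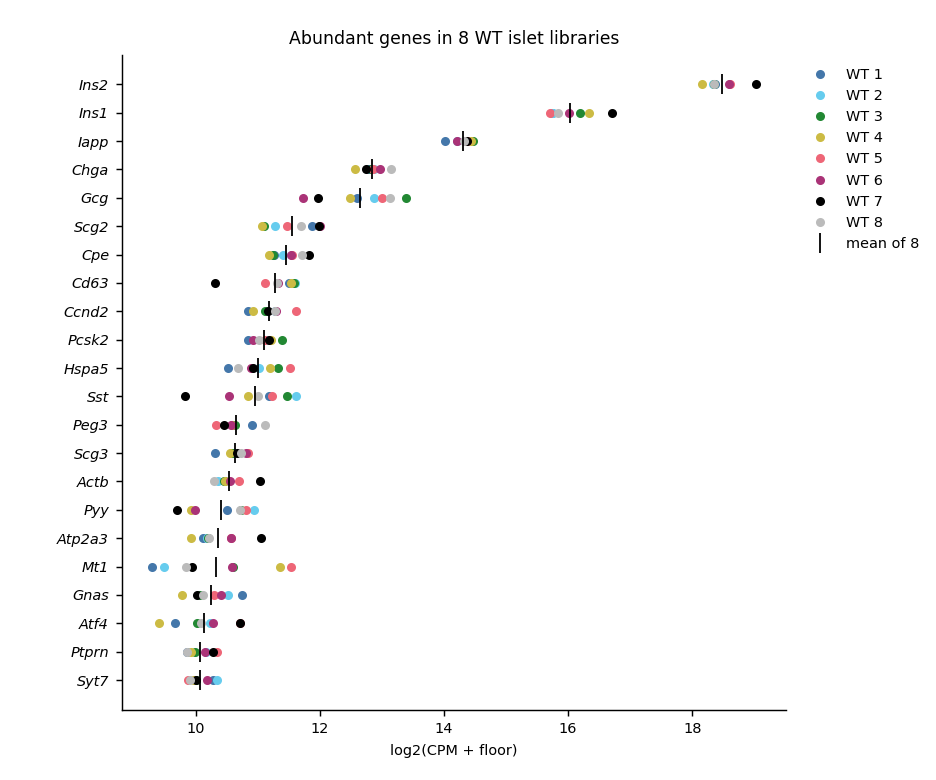
Log2 level of the genes named in the text among the 30 most abundant (rows, ordered by mean) in 8 WT islet libraries; points are libraries and the black tick is the mean of 8. Ins2, Ins1 and Iapp stand clear of the rest, WT 7 is highest for Ins2 at 19.03 and lowest for Cd63 at 10.30, and Mt1 has the widest spread.

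The lists of other cell types had far fewer reads. Acinar genes took 0.0727% ± 0.0847, ductal genes 0.104% ± 0.0126, endothelial genes 0.0498% ± 0.00782, stromal genes 0.0295% ± 0.00663 and myeloid genes 0.0258% ± 0.00772 of the reads (SD, n = 8). The acinar share was carried by WT 4, and without that library it was 0.0450% ± 0.0348 (SD, n = 7). The ductal and PP lists share Spp1, and several ductal-list keratins were even in these libraries, such as Krt7 at 8.83 ± 0.15, while the duct marker Krt19 had 3 to 36 reads. Among endothelial genes the growth factor receptor Kdr averaged 6.46 ± 0.23, and among myeloid genes the complement gene C1qa averaged 6.09 ± 0.49. The matrix gene Sparc ran from 7.24 in WT 4 through 7.45 to 8.49 in WT 7. Of 10 lymphocyte markers, 0 had values here. The adipocyte genes Fabp4 and Adipoq had 46 to 145 and 8 to 18 reads, and the globin gene Hbb-bs 2 to 77.

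**Figure D2:**
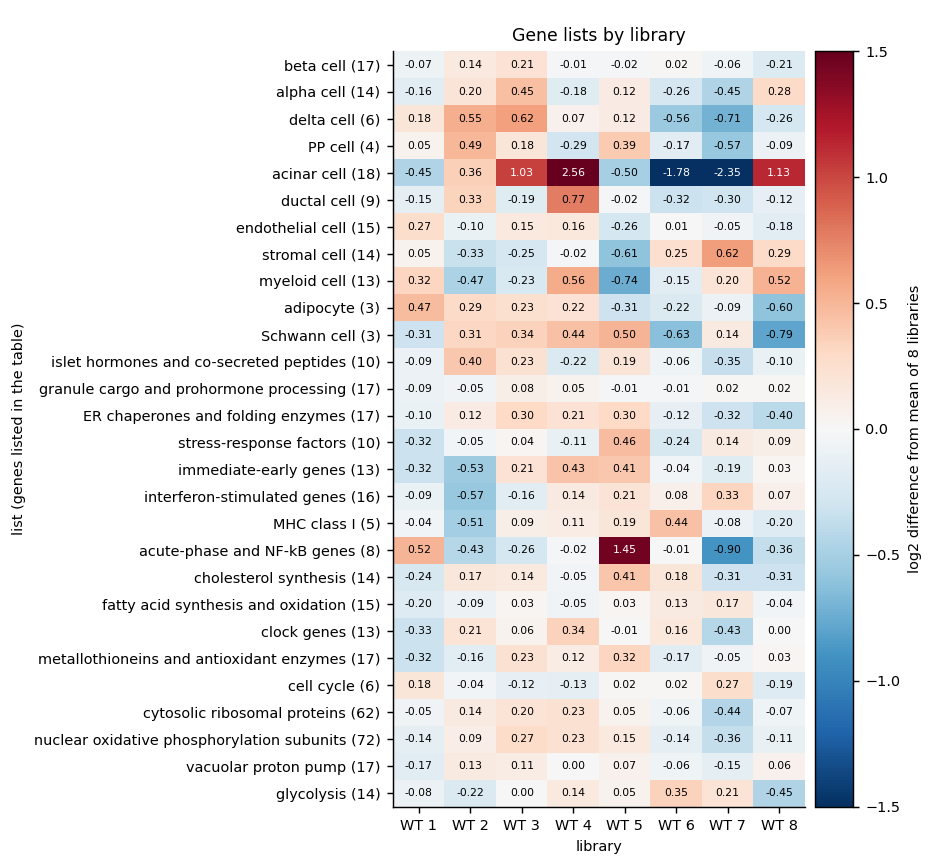
Mean log2 level of each gene list in each of 8 WT libraries, as the difference from that list's mean over the 8 (number in the cell; colours end at 1.5 in either direction; number of genes with values in brackets). The acinar list varies most, from -2.35 in WT 7 to 2.56 in WT 4, the acute-phase and NF-kB list is highest in WT 5 at 1.45, and the granule list stays within 0.09 of its mean.

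Spread between libraries depended strongly on level. With 1 library per mouse, differences between mice cannot be told apart from those between preparations. The median SD was 0.95 for genes below a mean log2 of 2, 0.51 between 3 and 4, 0.31 between 5 and 6 and 0.23 between 7 and 8. Counting reads alone would give medians of 0.39, 0.23, 0.12 and 0.06 in the same bins. Across the 10509 genes the Spearman correlation of mean and SD was -0.79, a description over genes, which are not independent. In well-read genes the SD was a median 3.09 times that from counting, and 13 of 3412 had an SD below it. An SD above 1 was found for 938 genes, or 696 without WT 7, and 7 of the 938 were well-read. Among well-read genes 214 had an SD above 0.5, or 121 without WT 7, and 632, or 18.5%, had an SD below 0.2.

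Of the 10 steadiest well-read genes, 6 had an SD below that from counting reads alone. The general transcription factor subunit Taf10 had an SD of 0.062, the kinase Araf 0.071 and the cyclin-dependent kinase Cdk4 0.080, each below the counting SD, as were those of Cpeb3 and Nptn. Hnrnpu, Rab14 and Mia3 had an SD of 0.081 to 0.082, against 0.042 to 0.053 from counting. Genes picked for a low SD cannot be tested for it.

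**Figure D3:**
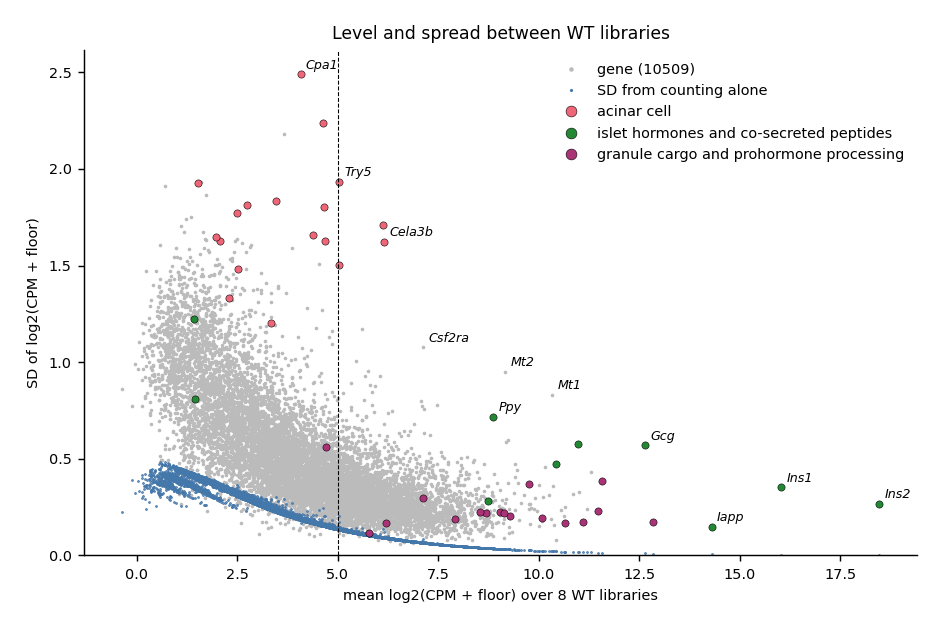
SD against mean of log2(CPM + floor) over 8 WT libraries for 10509 genes (grey), with the SD that counting reads alone would give (blue) and 3 gene lists coloured; the dashed line marks a mean of 5. Most acinar genes lie above nearly all genes of like level, Gcg, Ppy and Mt1 stand above most abundant genes, and granule genes lie near the bulk.

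Digestive enzyme genes of acinar cells led the variable genes. Of 26 acinar markers, 18 had values, and 14 of them were among the 30 most variable genes of the whole table. They included the trypsinogens Try4, Try5 and Prss2, the carboxypeptidases Cpa1 and Cpb1, the elastases Cela1, Cela2a and Cela3b, the lipases Pnlip, Pnliprp1 and Pnliprp2, the colipase Clps, Sycn and Reg1. The table's top 30 also held low genes, since 3 of the 30 were well-read and 15 had a library at 0 reads. The median SD of the 18 acinar genes was 1.68, and 1.47 without WT 7. Their upstream sequences are shown for the 3 well-read chymotrypsin-like and elastase genes, because these members moved together. The sequences are the 250 bases before the RefSeq start, 5′ to 3′ on the gene's strand, on GRCm38.p6. Capitals mark CACCTG, a form of the E box, and TTTCCC, the TC box letters, searched on both strands. Both elements are known for the acinar factor complex PTF1. The positions are chr15:100687921-100688170 on the minus strand for Cela1, chr4:137430521-137430770 on the minus strand for Cela3b and chr8:111691011-111691260 on the minus strand for Ctrb1.
Cela1: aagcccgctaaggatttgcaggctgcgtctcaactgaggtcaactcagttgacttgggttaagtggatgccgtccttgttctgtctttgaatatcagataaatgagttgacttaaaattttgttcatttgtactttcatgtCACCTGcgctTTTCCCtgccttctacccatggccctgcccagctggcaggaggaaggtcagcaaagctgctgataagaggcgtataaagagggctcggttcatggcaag
Cela3b: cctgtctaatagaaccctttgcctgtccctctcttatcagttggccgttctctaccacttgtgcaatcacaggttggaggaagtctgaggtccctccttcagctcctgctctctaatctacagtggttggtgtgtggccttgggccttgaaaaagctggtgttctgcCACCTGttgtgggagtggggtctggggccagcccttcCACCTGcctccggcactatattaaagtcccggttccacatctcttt
Ctrb1: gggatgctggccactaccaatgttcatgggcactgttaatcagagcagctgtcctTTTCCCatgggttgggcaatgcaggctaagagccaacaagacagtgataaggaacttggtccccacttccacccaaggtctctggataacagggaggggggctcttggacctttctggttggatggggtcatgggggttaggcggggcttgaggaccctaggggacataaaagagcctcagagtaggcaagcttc

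The Cela1 window held 1 CACCTG, starting 109 bases before the start, and 1 TTTCCC, starting 99 bases before it. The Cela3b window held 2 CACCTG, at 83 and 46 bases, and 0 TTTCCC. The Ctrb1 window held 0 CACCTG and 1 TTTCCC, at 195 bases. CACCTG was the only E box form searched. The CAGCTG letters in the Cela1 and Ctrb1 windows were neither searched nor marked. A count of 0 CACCTG is thus not a count of 0 E boxes. Over 27025 RefSeq genes, 17.1% held at least 1 CACCTG, 2.06% at least 2 and 21.9% at least 1 TTTCCC in the same window. A match describes these letters and does not show a bound site.

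Each of the 18 acinar genes was highest in WT 4. Cela1, an elastase family serine protease, ran from 3.26 in WT 7 through a median of 6.53 to 8.35 in WT 4, or 22 to 1178 reads. Cela3b ran from 3.90 in WT 7 through 6.05 to 9.04 in WT 4, or 35 to 1900 reads. Ctrb1, a chymotrypsinogen, ran from 3.06 in WT 7 through 4.94 to 7.49 in WT 4. WT 7 and WT 6 were the lowest libraries for all 3, and WT 3 and WT 8 were next after WT 4. Cpa1 had the largest SD of any gene, 2.49 with WT 7 and 1.63 without it, and ran from 0 reads in WT 7 to 549 in WT 4. Pnliprp1 was lowest in WT 6, at 4 reads, and highest in WT 4, at 692. The lowest library was WT 6 or WT 7 for 16 of the 18. Over all well-read genes, 10.1% were highest in WT 4, 6.48% lowest in WT 6 and 20.5% lowest in WT 7. Only 4 of the 18 were well-read, so these shares are not matched to their level. The summed share of reads of the 18 was 0.00650% in WT 7 (95% Wilson interval 0.00563% to 0.00751%) and 0.267% in WT 4 (0.261% to 0.272%). Within this list the median pairwise r over 8 libraries was 0.87, and 0.88 without WT 7. The median over all pairs of well-read genes was 0.01. Trypsinogen and elastase copies are alike in sequence, so the split of reads among them is uncertain.

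Among well-read genes, 22 of the 30 most variable were lowest in WT 7. After Try5, Cela1, Cela3b and Ctrb1 came the autophagy regulator Trp53inp2, the cytokine receptor subunit Csf2ra, the membrane protein Itm2c and the ferritin light chain Ftl1. Csf2ra ran from 4.66 in WT 7 through 7.35 to 8.10 in WT 8, and its SD of 1.08 became 0.45 without WT 7. Trp53inp2 ran from 3.06 in WT 7 through 5.90 to 6.68 in WT 3, with an SD of 1.17, or 0.62 without WT 7. The ribosomal protein gene Rpl34 ran from 5.66 in WT 7 through 7.79 to 8.09 in WT 2, with an SD of 0.78, or 0.28 without WT 7. In each of these 3, WT 7 lay below all the others by more than the range of the others. Ftl1 and Rpl34 have processed pseudogenes, so their read assignment is uncertain. Of all well-read genes 20.5% were lowest in WT 7 and 25.8% were highest in it. WT 7 also had the fewest reads and the largest insulin share, and the part of these in its low values was not tested.

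Without WT 7 the ranking changed for most of the 30. When the same 3412 genes were ranked by their SD over the other 7 libraries, 13 of the 30 were kept. They were Try5, Cela3b, Ctrb1, Cela1, Mt2, Tubb3, Mt1, Tmem229b, Ramp3, Mif, Spp1, Pdyn and Manf. Genes that entered included the stress genes Chac1 and Trib3, the NF-kB cofactor Bcl3, the mannose pathway gene Gmppb, the ER chaperone component Sdf2l1 and the signalling inhibitor Socs2. Of these 30, 15 were highest in WT 5, against 17.6% of all well-read genes.

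Metallothionein transcripts differed between libraries by 4.74-fold for Mt1 and 5.49-fold for Mt2, highest over lowest. Mt1 was 9.30 in WT 1, with a median of 10.26 and a highest value of 11.54 in WT 5. Mt2 was 8.09 in WT 1, with a median of 9.00 and a highest value of 10.55 in WT 5. In both genes WT 5 and WT 4 were high and WT 1 and WT 2 were low. The SDs were 0.83 and 0.95 with WT 7 and 0.88 and 0.97 without it. Of 18 metallothionein and antioxidant genes, 17 had values and 3 were among the 100 most variable well-read genes: Mt1, Mt2 and the heme oxygenase gene Hmox1. The superoxide dismutase Sod1 was steady at 9.09 ± 0.25 (SD, n = 8). The glutathione peroxidase Gpx3 ran from 8.02 in WT 4 through 8.60 to 9.61 in WT 7.

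WT 5 carried the highest values of several inflammatory genes. The complement gene Cfb was 5.94 in WT 5 and at most 1.94 in the other 7, or 256 reads in WT 5 against 1 to 11 in the others. The guanylate-binding protein gene Gbp5 was 5.05 in WT 5, with a median of 0.18. The acute-phase gene Lcn2 was 4.96 in WT 5, with a median of 1.52, and the adhesion gene Icam1 was 4.58, with a median of 1.77. The NF-kB inhibitor Nfkbia, a target of the pathway it restrains, ran from 6.24 in WT 7 through 7.08 to 8.32 in WT 5. Of 16 acute-phase and NF-kB genes, 8 had values, and 5 of the 8 were highest in WT 5, while C3 and Nfkb1 peaked in WT 1 and Socs3 in WT 3. WT 5 was the highest library for 17.6% of all well-read genes. Only 1 of these 8 genes was well-read, so that share is not matched to their level. WT 5 was highest for 3 of 16 interferon-stimulated genes and 0 of 5 MHC class I genes with values. The mean level of the 8 acute-phase and NF-kB genes was 1.45 above the 8-library mean in WT 5, 0.52 above it in WT 1 and 0.90 below it in WT 7. WT 5 had the most reads of the 8 libraries and the lowest mean level of the myeloid, stromal and endothelial lists, at -0.74, -0.61 and -0.26 from their means. The part of read number in the WT 5 values was not tested.

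Stress and secretory pathway genes varied moderately. Of 18 ER chaperones and folding enzymes, 17 had values, with a median SD of 0.33 and a median pairwise r of 0.50, or 0.52 without WT 7. Hspa5, the main ER chaperone, ran from 10.52 in WT 1 through 10.97 to 11.52 in WT 5. Manf, a secreted ER stress protein, ran from 4.31 in WT 7 through 6.15 to 6.84 in WT 3, and its SD of 0.87 became 0.63 without WT 7. Of 11 stress-response factors, 10 had values. Ddit3, which encodes CHOP, ran from 6.74 in WT 1 through 7.19 to 7.88 in WT 5. Trib3, a target of ATF4 and CHOP, ran from 4.52 in WT 4 through 5.54 to 6.52 in WT 5. Chac1, which degrades glutathione, ran from 4.35 in WT 1 through 5.46 to 6.67 in WT 5. WT 5 was highest in all 4 of Hspa5, Ddit3, Trib3 and Chac1. Over the lists it was highest for 9 of the 17 ER genes and 6 of the 10 stress-response factors. The rest peaked in other libraries. For comparison, 17.6% of all well-read genes were highest in WT 5.

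Ribosomal, mitochondrial and clock lists were lowest in WT 7. The 62 cytosolic ribosomal protein genes had a mean log2 level of 4.21 in WT 7, 0.44 below their mean, and the 72 nuclear oxidative phosphorylation genes were 0.36 below theirs. The 13 clock genes were 0.43 below theirs. Of the 62 ribosomal protein genes, 28 were well-read and 5 had 0 reads in WT 7. WT 7 was lowest for 23 of the 62 and highest for 10, against 20.5% and 25.8% of all well-read genes. The clock output gene Dbp ran from 3.69 in WT 7 through 5.02 to 5.46 in WT 6. Spread differed between lists. The median SD was 0.44 over 14 glycolysis genes and 0.42 over 15 genes of fatty acid synthesis and oxidation. It was 0.33 over the oxidative phosphorylation genes, 0.38 over the clock genes and 0.48 over the ribosomal protein genes. In well-read members alone these medians were 0.39, 0.28, 0.30, 0.21 and 0.31, in the same order. Over all members without WT 7 the medians were 0.39, 0.45, 0.31, 0.31 and 0.38, again in that order. In glycolysis Ldha, a lactate dehydrogenase subunit, had an SD of 1.19 at a mean of 3.43, and Aldoa, an aldolase, an SD of 0.24 at a mean of 9.87. In the fatty acid list the lipid droplet gene Plin2 had an SD of 0.57 and the citrate lyase Acly 0.23. In the interferon list Rsad2 ran from 4.89 in WT 3 through 5.51 to 6.51 in WT 5, while Isg15 had 5 to 29 reads.

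Gene-gene correlations showed a few shared patterns. Over all pairs of well-read genes the median Pearson r across 8 libraries was 0.01, 1.94% of pairs had r of at least 0.8 and 1.67% had r of at most -0.8. Among the 100 most variable, chosen for their spread, the median was 0.25 and 19.9% of 4950 pairs reached 0.8, or 7.74% of the same pairs without WT 7. Average linkage cut at r of 0.5 gave 12 groups, 6 of them with at least 3 genes. Of the 100 genes, 62 were lowest in WT 7, against 20.5% of all well-read genes. The largest group had 60 genes, 56 of them lowest in WT 7, with a median r of 0.82, or 0.57 without WT 7. It held the 4 well-read acinar genes, the hormone genes Sst and Ppy, Ttr, the secretory stress factor Xbp1, Csf2ra, Trp53inp2 and Rpl34. The first principal component took 38.5% of the variance of well-read genes, and its scores were 25.0 in WT 7 and -9.47 to 6.28 in the others. With WT 7 left out, the first component took 28.6%.

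The smaller groups followed other libraries. Mt1, Mt2, the neuronal tubulin Tubb3, Tmem229b, Gmppb, Sdf2l1, the ER oxidase Ero1a and Kcnh1 were all highest in WT 5, with a mean of 1.05 above their 8-library level there and 1.03 below it in WT 1. Chac1, Trib3, Hmox1, Parp9, Dpagt1, Gdap2, Pigt and Rit1 were high in WT 5 and WT 7, at 0.82 and 0.79 above. Bcl3, Nfkbia, C2cd4b, Inpp5f and Rgs17 were all highest in WT 5, at 1.19 above. The opioid precursor Pdyn, the receptor partner Ramp3, the cytokine Mif, Adam15, the enolase Eno1, Nnt and Zdhhc21 were lowest on average in WT 8, at 1.11 below. Socs2, Cux2, Tshz3 and the liver and endoderm factor Foxa3 were lowest in WT 4, at 1.12 below. The remaining pairs included Ang and Rnase4, whose annotated spans overlap, so their reads may not be separable. Within the Mt, Chac1, Pdyn, Bcl3 and Socs2 groups the median r was 0.68 to 0.77, and 0.65 to 0.84 without WT 7. The groups were made from these values and were not tested.

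**Figure D4:**
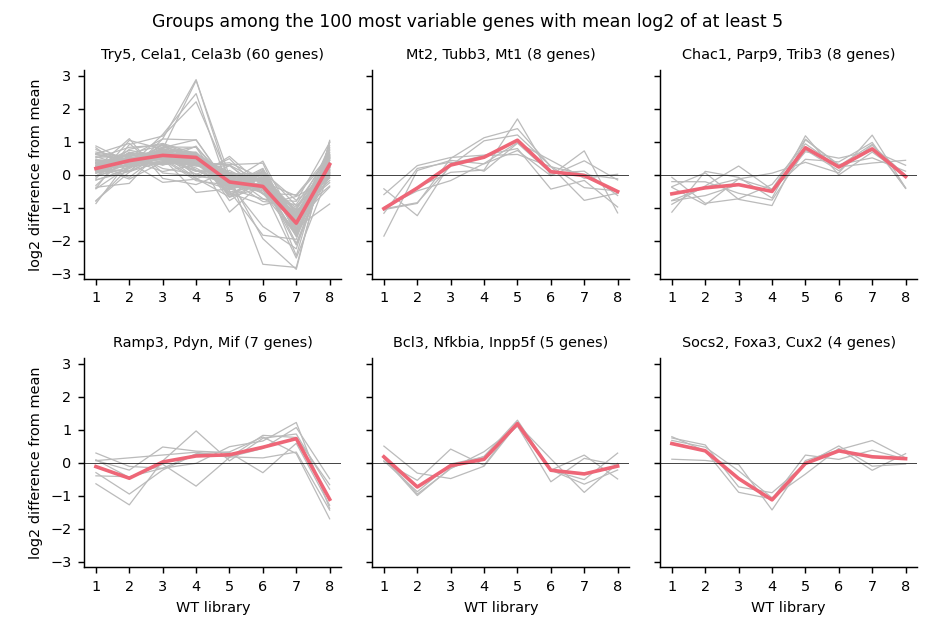
Log2 difference from the 8-library mean for each gene (grey) and the group mean (red) in the 6 correlated groups of at least 3 genes; the x axis numbers the WT libraries, which have no order. The 60-gene group drops to -1.47 in WT 7, and the groups led by Mt2 and Bcl3 peak in WT 5 at 1.05 and 1.19.

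Of 25 gene pairs chosen for known relations, 2 (8%) passed a two-sided exact permutation test of Pearson's r over all 40320 pairings of the 8 libraries, with Benjamini-Hochberg adjustment over the 25. Before adjustment 7 had a p under 0.05. The pairs were chosen with earlier results of these data known, so their p-values are descriptive. Each p is the share of pairings with an absolute r at least as large as the observed one, over these 8 samples only. Mt1 and Mt2 had r = 0.99 (exact p = 7.44e-05, adjusted p = 0.00186, n = 8) and Spearman's rho = 0.98 (exact p = 0.000397, adjusted p = 0.00992). Without the 2 libraries farthest from the Mt1 median, WT 4 and WT 5, r was 0.96 and no longer passed (adjusted exact permutation p = 0.104). Far fewer pairings exist without these 2, so not passing cannot tell a weaker correlation from fewer libraries. Under the other 13 alternatives it passed, with adjusted p from 0.00186 to 0.0149. These genes lie 5316 bases apart on chromosome 8.

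Ppy and Pyy had r = 0.86 (exact p = 0.00213, adjusted p = 0.0267, n = 8), but rho = 0.79 did not pass (exact p = 0.0279, adjusted p = 0.140). Without WT 2 and WT 7, r was 0.71 and no longer passed, with far fewer pairings to set it against. These genes lie 5357 bases apart on chromosome 11. The adjusted p was above the threshold without any one of WT 2, WT 4, WT 5, WT 6 or WT 7, from 0.0546 to 0.177 in exact permutation over 7 libraries.

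The other hormone pairs did not pass after adjustment. Gcg and Ttr, both abundant in alpha cells, had r = 0.84 (exact p = 0.0111, adjusted p = 0.0553) and rho = 0.83 (exact p = 0.0154, adjusted p = 0.0961), and r = 0.79 without WT 6 and WT 7. Gcg and Sst had r = 0.79 (exact p = 0.0178, adjusted p = 0.0702) and rho = 0.74 (exact p = 0.0458, adjusted p = 0.164), and r = 0.48 without WT 6 and WT 7. Sst and Ppy had r = 0.85 (exact p = 0.00935, adjusted p = 0.0553) and rho = 0.76 (exact p = 0.0368, adjusted p = 0.153), and r = 0.50 without WT 6 and WT 7.

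Insulin genes did not rise and fall together detectably. Ins2 and Ins1 had r = 0.46 (exact p = 0.256, adjusted p = 0.445, n = 8) and rho = -0.10 (exact p = 0.840, adjusted p = 0.875). Without WT 5 and WT 7, r was -0.38, and without WT 7 alone it was -0.53, so the sign rested on WT 7. Ins2 and the trypsinogen Prss2 had r = -0.60 (exact p = 0.110, adjusted p = 0.305) and rho = -0.71 (exact p = 0.0576, adjusted p = 0.180), and r = -0.82 without WT 5 and WT 7. Ins2 took at least 33.4% of the reads in each library, so other genes share a scale with it.

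Pairs within other programmes were mixed. Ddit3 and Trib3 had r = 0.83 (exact p = 0.0108, adjusted p = 0.0553) and rho = 0.90 (exact p = 0.00456, adjusted p = 0.0570), and r = 0.61 without WT 5 and WT 7. Prss2 and Cpa1 had r = 0.78 (exact p = 0.0196, adjusted p = 0.0702) and rho = 0.86 (exact p = 0.0107, adjusted p = 0.0893), r = 0.68 without WT 4 and WT 6, and r = 0.93 without WT 7, where Cpa1 had 0 reads. The class II genes H2-Aa and Cd74 had r = 0.70 (exact p = 0.0681, adjusted p = 0.213) and rho = 0.67 (exact p = 0.0831, adjusted p = 0.231), r = 0.61 without WT 1 and WT 3, and r = 0.96 without WT 7. Of the 25 pairs, 21 had a positive r. The labels give no batch. Titles with consecutive animal numbers join WT 1 with WT 2, WT 3 with WT 4 and WT 6 with WT 7, too few in each for a correlation within them. By the SD of the log2 difference over well-read genes, WT 3 and WT 4 were the closest of all 28 pairs of libraries at 0.299, WT 1 was closest to WT 2 at 0.37, and WT 7 was closest to WT 6 at 0.46. WT 2 was closest to WT 3 and WT 6 to WT 1. The permutation test treats the 8 libraries as exchangeable, and whether consecutive numbers mark a shared source was not tested.

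**Figure D5:**
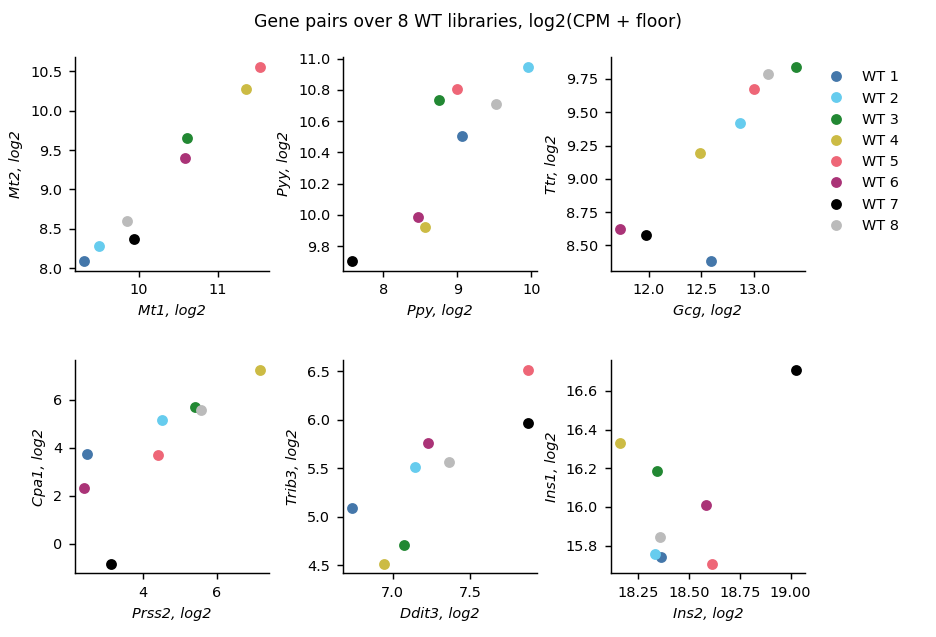
Log2 levels of 6 gene pairs in 8 WT libraries, 1 point per library. Mt1 and Mt2 follow a line (r = 0.99), Ppy and Pyy follow one more loosely (r = 0.86), Cpa1 falls to the floor in WT 7, and WT 7 sits alone at the top right for Ins2 and Ins1.

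The genes most like each marker were taken as the highest Pearson r among 3412 well-read genes over 8 libraries, so each r is a description of the best of many and has no test. Ins2 was most like the calcium pump Atp2a3 (r = 0.99, or 0.98 without WT 7), followed by the channel gene Hcn2 at 0.99, Rnf187 at 0.98, the splicing regulator Ptbp1 at 0.97 and Stk4 at 0.96. Without WT 7, r was 0.96 for Hcn2, 0.98 for Rnf187, 0.92 for Ptbp1 and 0.87 for Stk4. Atp2a3 ran from 9.93 in WT 4 through 10.21 to 11.06 in WT 7, the same end libraries as Ins2. The most opposed were the small GTPase Cdc42 at -0.98, the calcineurin subunit Ppp3r1 at -0.98 and the proteasome subunit Psmd3 at -0.97, each lowest in WT 7. Without WT 7 these were -0.93, -0.94 and -0.92. Ins1 was most like the adenylate cyclase Adcy9 at 0.96, or 0.90 without WT 7. Iapp was most like Naa38 at 0.96, with and without WT 7. Gcg was most like Agtpbp1 at 0.95, or 0.94 without WT 7. Try5, the most variable well-read gene, was most like Hint1 at 0.99, and Cela1 was the next at 0.98, with 0.98 for it without WT 7.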

How the data were processed

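Islet RNA was made into 3' end libraries with the QuantSeq 3' mRNA FWD kit, per the labels' protocols. Per the submitters' processing notes, the tools were HTSeq 0.6.1, STAR 2.5.2 and edgeR, and the build was GRCm38. The sources used here give no settings, gene filter or annotation. The deposited values are log2, and the authors normalized them. From the values, they are log2 of CPM plus 0.562, with CPM per scaled library size. All values gave whole reads to within 0.05, which gave the depths. There were 0 columns of unmapped samples. Gene positions and upstream sequences are RefSeq's on GRCm38.p6, and 10508 of 10509 Entrez IDs matched.

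Only the 8 WT samples were used. Mean and SD of log2 values, counting SDs, Pearson and Spearman correlations, exact permutation tests, average linkage and principal components were computed with Python 3.11.15, numpy 2.4.6, pandas 2.3.3 and scipy 1.17.1, and drawn with matplotlib 3.10.9. The calculations were tested on simulated data. Members, pairs and lists were chosen with earlier results of these data known. Named genes were the 30 highest by mean, the 30 highest by SD over all genes and over well-read genes, the 10 lowest by SD, leading and widest list members, paired genes and those most like each marker. Members of correlated groups, list genes beyond these and the sequences shown were chosen after their values were seen. To look for a library deposited in duplicate, read counts were compared by chi-square, which divided by its degrees of freedom ran from 6.54 to 26.7 in 28 pairs, and none was found. Alternatives were other scalings, added constants, level filters, rank measures and leaving out each library. Values without WT 7 for lists, shares, the first component and the variable genes, and shares without WT 4, were added after seeing the data. Some genes that the rule selects are not reported here.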

Additional observations from a re-analysis of the deposited data

Results flagged for a closer look

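A value was singled out where the gap between the highest or lowest library and its nearest neighbour, divided by the range of all 8, was above Dixon's critical value of 0.526. Chance flags about 1 in 20 groups, and 23 of 173 results looked at were singled out (13.3%), 13 of them by WT 7. Many of these genes were named for their spread, so this share is not comparable with the chance rate. No cause was tested.

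WT 7 was high in listed genes at 0 reads (346, ratio 0.69), in the percent of reads in the 30 most abundant genes (61.5%, ratio 0.636) and in the SD of well-read genes about their means (0.452, ratio 0.714). The ribosomal protein list was lowest there at a mean log2 level of 4.21 (ratio 0.559). Single genes lowest in WT 7 were Vgf at 3.38 (ratio 0.688), Cd63 at 10.30 (0.627), Trp53inp2 at 3.06 (0.585), Csf2ra at 4.66 (0.608), Rpl34 at 5.66 (0.617), Cdc42 at 6.17 (0.565), Ppp3r1 at 3.98 (0.568), Psmd3 at 5.99 (0.617) and the cytokine signalling inhibitor Socs3 at -0.04 (0.75).

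WT 8 was low for the macrophage cytokine gene Mif at 4.64 (ratio 0.618) and for Nnt, the mitochondrial NAD(P) transhydrogenase, at 3.90 (0.853), and high for the ribonuclease gene Rnase4 at 10.64 (0.734). It was also lowest for the steady gene Taf10 at 6.73 (0.548). WT 1 was lowest for the beta-cell peptide Ucn3 at 8.12 (0.582), Rab14 at 8.17 (0.568) and Tmem229b at 3.79 (0.655). WT 4 was lowest for Foxa3 at 4.17 (0.657). WT 5 was highest for the inflammatory genes Cfb at 5.94 (0.643) and Gbp5 at 5.05 (0.635).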

How the results depend on the processing

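The 30 most abundant genes were stable: 28 to 30 of them were kept under other scalings, the median and each library left out, and their share of reads stayed at 52.9% to 54.4%. The 30 most variable well-read genes were less so. With a level of at least 3, at least 7 or no filter, 4, 7 and 3 of them were kept, and 11 were kept with the median absolute deviation. The level of 7 itself removes 23 of the 30. Leaving out each library, with the level filter taken again, kept 12 to 28, the lowest without WT 7 (13 with the filter of all 8). Genes with an SD above 1 numbered 342 with 1 added to the linear value and 15 with 5 added, which compress low genes, and 696 to 1027 with each library left out. Of the 25 pairs, 4 passed under quantile normalization, 6 with 5 added, 1 by Spearman's rho and 0 without the 2 farthest libraries (2 in the report). With each library left out 1 to 3 passed. Leaving out libraries leaves fewer pairings, so fewer passes there cannot be read as weaker correlation alone. Quantile normalization gave no value for 6 pairs with Ins2 or Ins1, which it makes constant. The largest group had 23 to 65 genes with each library left out, 23 without WT 7. Signs reversed for pairs that did not pass. Ins2 and Ins1 had rho of -0.0952, r of -0.377 without the 2 farthest libraries and -0.53 to 0.75 with each left out. Ins2 and Iapp had -0.188 scaled outside insulin, rho of -0.214, -0.446 without the 2 farthest and -0.21 to 0.30 with each left out. Gcg and Ins2 had 0.400 without the 2 farthest. Ins2 and Hspa5 had -0.174 outside insulin, rho of -0.143, -0.353 without the 2 farthest and -0.16 to 0.17 with each left out. Without the 2 farthest Hspa5 and Hsp90b1 had -0.0299 and Prss2 and Krt19 -0.117, the second pair running from -0.0699 to 0.67 with each left out. Spearman's correlation was 0.214 for Fos and Junb, -0.119 for Isg15 and Ifit1 and -0.0476 for Hmgcs1 and Sqle, and Isg15 and Ifit1 had -0.0705 without the 2 farthest. With each left out these ran from -0.27 to 0.54, -0.16 to 0.32 and -0.0098 to 0.27. Causes of these reversals were not tested. No paired analysis was possible because a single group was described. Depth limits low genes: 1 read was worth 0.238 to 0.411 CPM.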
